A study of Meleagris gallopavo with 3 samples.

Results

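The genes described here are ubiquitin ligases of muscle and the forkhead O transcription factors that are known to control some of them. A fixed list of 8 symbols, TRIM63, TRIM54, TRIM55, FBXO32, FOXO1, FOXO3, HECW2 and CBLB, was matched to the gene symbols of the deposited table, and 7 of the 8 were found among its 23976 genes. TRIM54 was not analysed here. Genes were matched to this list by symbol alone and not by any measured value, but the list itself was chosen with earlier results of these data known. All 7 genes reached 5 CPM, that is 5 exon reads per 1000000 exon reads of the library, in at least 1 library, the minimum that 11022 genes passed.

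Ubiquitin ligases choose the proteins to which ubiquitin is attached, and a chain of ubiquitin sends many of them to the proteasome for breakdown. In skeletal muscle of mammals TRIM63 (MuRF1) and FBXO32 (atrogin-1) are known as the ligases that rise when muscle wastes, in fasting, denervation, disuse and glucocorticoid excess. FOXO1 and FOXO3 are transcription factors that bind near both genes in mammals, and the kinase AKT, downstream of insulin and IGF receptors, keeps them out of the nucleus by phosphorylation.

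The cells were satellite cells, the stem cells of muscle, from the breast muscle (pectoralis thoracicus) of turkeys (Meleagris gallopavo) that were 1 day old. They grew for 2 weeks on gelatin as undifferentiated cells and were then split into 3 cultures that differed in medium, attachment and time. Adherent cells stayed undifferentiated in medium with 15% chicken serum, differentiated cells were adherent cells given medium with 4% horse serum to fuse into myotubes, and suspension cells spent 3 months in turning flasks (110 rpm) in the medium of the adherent cells. RNA from 3 experiments was pooled per culture and sequenced as 1 library, so no spread between cultures can be measured and no p-value is given. The intervals below are exact 95% intervals for counting error only, and a gene is called higher or lower when its CPM differed by at least 2-fold, a log2 ratio of 1.

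The 3 libraries are headed Suspension, Adherent and Differentiating and held 23844835, 17444865 and 22816125 exon reads, so 1 read was 0.0419, 0.0573 and 0.0438 CPM. In the files these headings clash with those of the fold changes. The ratio titled suspension against differentiating is in fact, within 0.02 on the log2 scale, that of the counts headed Differentiating and Adherent, in all 12207 genes with at least 10 reads in both, and the ratio titled adherent against differentiating is that of the counts headed Differentiating and Suspension, in all 12154 such genes. Each library takes its name here from the heading of its counts, so the suspension, adherent and differentiating library are the ones so headed. Every direction between the adherent and suspension libraries turns if those headings are exchanged. Exchanged headings would match both of these fold-change titles. They would also give the directions that the paper reports for TRIM63, MYL3, TNNT2 and OBSL1. The names adherent and suspension therefore stand here for headings of counts, and the cultures behind them may be the other way round. Intron reads were 15.2%, 24.3% and 12.0% of gene reads in the suspension, adherent and differentiating libraries. Of 13 myogenic markers 9 were found by symbol, with summed levels of 14887, 9047 and 4551 CPM in that order, and 7 of 9 fibroblast markers summed to 17121, 9167 and 58260 CPM. Myomaker, listed as MYMK, was in the table under its older symbol TMEM8C, at 855.6, 98.83 and 101.7 CPM. It is left out of the myogenic sums and counts. The collagen genes COL1A2 and COL3A1 made up most of the fibroblast sums, and for adherent over suspension 4 of the 7 markers were higher and 2 lower, with a median log2 ratio of 1.99. The myogenic markers were split as well, with 2 higher (MYF5 and ACTA1), 5 lower and a median of -1.39. Of all genes, 20.0% were higher and 21.6% lower for adherent over suspension. MYOD1 rose by 0.99, while NES was at 4340, 24.13 and 942.5 CPM.

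By the headings of the counts, the 7 genes fell into 3 orders over the libraries. TRIM63, FBXO32 and FOXO1 were highest in the adherent library, lower in the suspension library and lowest in the differentiating library. FOXO3 and CBLB were also highest in the adherent library but lowest in the suspension library. TRIM55 and HECW2 were highest in the suspension library and stood at similar levels in the other libraries. Of these neighbours in order, only the levels of TRIM55 in the adherent and differentiating libraries had a ratio whose counting interval included no difference. The paper instead describes TRIM63 as most highly expressed in suspension cells, which is where exchanged headings would place it.

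**Figure D1:**
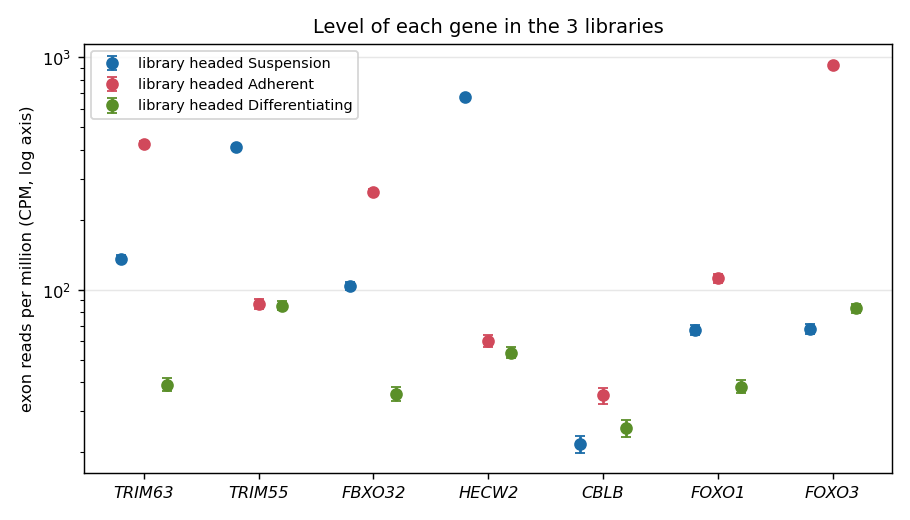
Level of each of the 7 genes, in CPM (log axis), in the suspension, adherent and differentiating libraries; points are single pooled libraries and bars are exact 95% Poisson intervals for counting error. FOXO3 reached 924.6 CPM in the adherent library, and HECW2 reached 673.4 CPM and TRIM55 410.4 CPM in the suspension library.

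TRIM63 encodes MuRF1, a ligase of the sarcomere's M-line region that attaches ubiquitin to myosin heavy chain and other thick filament proteins in mammals. The deposited table places it on chromosome 25 from 3798249 to 3801372, in a build that the table does not name, with 1280 bases of exon. Its level was 136.0 CPM (interval 131.4 to 140.8) in the suspension library, 424.4 CPM (414.8 to 434.1) in the adherent library and 39.14 CPM (36.61 to 41.79) in the differentiating library. The adherent library was thus 3.12-fold above the suspension library, a log2 ratio of 1.64 (1.58 to 1.70). It was 10.8-fold above the differentiating library, a log2 ratio of 3.44 (3.34 to 3.54). TRIM63 was called in all 3 comparisons, since the differentiating library was also 3.47-fold below the suspension library (log2 ratio -1.80, -1.91 to -1.69).

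TRIM55 encodes MuRF2, a close relative that associates with titin and with microtubules while sarcomeres form. It lies on chromosome 3 from 60037765 to 60073940 by the same table, with 2107 bases of exon. TRIM55 stood at 410.4 CPM (402.4 to 418.7) in the suspension library, 87.13 CPM (82.81 to 91.62) in the adherent library and 85.33 CPM (81.59 to 89.21) in the differentiating library. It was therefore the suspension library that stood apart, by 4.71-fold from the adherent library (log2 ratio of adherent over suspension -2.24, -2.31 to -2.16) and by 4.81-fold from the differentiating library (-2.27, -2.34 to -2.20). Between the adherent and differentiating libraries the log2 ratio was 0.03, with an interval from -0.07 to 0.13, and -0.15 under TMM scaling, a scaling that trims extreme genes.

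Since TRIM63 and TRIM55 differed in opposite directions between the adherent and suspension libraries, the balance of both relatives also turned. Per kilobase of exon, the scale on which levels of different genes can be set side by side, TRIM63 was at 106.3, 331.5 and 30.58 CPM per kb in the suspension, adherent and differentiating libraries, and TRIM55 at 194.8, 41.35 and 40.50. TRIM63 was thus 8.02 times TRIM55 (7.59 to 8.48) in the adherent library, but 0.545 times (0.524 to 0.568) in the suspension library and 0.755 times (0.697 to 0.818) in the differentiating library.

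FBXO32 encodes atrogin-1, the F-box subunit that brings substrates to an SCF ubiquitin ligase. It lies on chromosome 3 from 82302571 to 82327111, with 5968 bases of exon. Its levels were 104.0 CPM (99.95 to 108.2) in the suspension library, 264.4 CPM (256.8 to 272.1) in the adherent library and 35.72 CPM (33.31 to 38.26) in the differentiating library. This is the order of TRIM63, and FBXO32 was likewise called in all 3 comparisons. The log2 ratio was 1.35 (1.28 to 1.42) for adherent over suspension, -1.54 (-1.66 to -1.43) for differentiated over suspension and 2.89 (2.78 to 3.00) for adherent over differentiated. The level of TRIM63 per kilobase was 6.10, 7.48 and 5.11 times that of FBXO32 in the suspension, adherent and differentiating libraries, so on this scale the balance of this pair moved little beside that of TRIM63 and TRIM55. Reads across exon junctions, few in FBXO32, gave a larger difference for FBXO32 than for TRIM63. Their log2 ratios of adherent over suspension were 3.78 and 1.97. By these reads the balance moved toward FBXO32 in the adherent library, the opposite of the levels per kilobase.

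HECW2 encodes a ligase of the HECT type, of the NEDD4 family, and is best known from neural tissue of mammals. It lies on chromosome 7 from 9312022 to 9419575, with 7381 bases of exon. HECW2 was at 673.4 CPM (663.0 to 683.9) in the suspension library. It was at 60.36 CPM (56.77 to 64.12) in the adherent library and at 53.65 CPM (50.68 to 56.74) in the differentiating library. The suspension library was 11.2-fold above the adherent library (log2 ratio of adherent over suspension -3.48, -3.57 to -3.39) and 12.6-fold above the differentiating library (-3.65, -3.73 to -3.57). In the latter comparison 34 of the 10929 genes compared had a lower ratio. The adherent and differentiating libraries differed by a log2 ratio of 0.17 (0.05 to 0.29), which TMM scaling took to -0.01.

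CBLB encodes a RING ligase that restrains signals from receptors, and in mouse muscle it is known to promote breakdown of the insulin receptor substrate IRS1 during unloading. It lies on chromosome 1 from 84657122 to 84780788, with 5205 bases of exon. CBLB had the lowest level per kilobase of the 7 genes in each library (4.158, 6.751 and 4.875 CPM per kb). It stood at 21.64 CPM (19.81 to 23.59) in the suspension library, 35.14 CPM (32.41 to 38.03) in the adherent library and 25.38 CPM (23.35 to 27.53) in the differentiating library. It was called in none of the 3 comparisons, although with intron reads added it passed the limit for adherent over suspension, at 1.15. Its log2 ratios were 0.70 (0.53 to 0.87) for adherent over suspension, 0.23 (0.06 to 0.40) for differentiated over suspension and 0.47 (0.30 to 0.64) for adherent over differentiated. HECW2 per kilobase was 21.9 times CBLB in the suspension library, and 1.21 and 1.49 times in the adherent and differentiating libraries.

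FOXO1 lies on chromosome 1 from 160378417 to 160432543, with 5210 bases of exon. Its levels were 66.97 CPM (63.73 to 70.34), 112.1 CPM (107.2 to 117.2) and 38.35 CPM (35.85 to 40.98) in the suspension, adherent and differentiating libraries. FOXO1 thus had the order of TRIM63 and FBXO32 with smaller ratios. Its log2 ratio passed the limit only for adherent over differentiated, at 1.55 (1.43 to 1.66), and was 0.74 (0.65 to 0.84) for adherent over suspension and -0.80 (-0.92 to -0.68) for differentiated over suspension.

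FOXO3 lies on chromosome 2 from 62897473 to 62914907, with 5689 bases of exon. It stood at 67.90 CPM (64.63 to 71.29) in the suspension library, 924.6 CPM (910.4 to 939.0) in the adherent library and 83.14 CPM (79.44 to 86.97) in the differentiating library. The adherent library was 13.6-fold above the suspension library, a log2 ratio of 3.77 (3.69 to 3.84), with 584 of 11020 genes above it. It was 11.1-fold above the differentiating library, a log2 ratio of 3.48 (3.41 to 3.54). The differentiating and suspension libraries differed by a log2 ratio of 0.29 (0.20 to 0.39). Per kilobase, FOXO3 was 0.928 times FOXO1 (0.866 to 0.995) in the suspension library, 7.55 times (7.21 to 7.92) in the adherent library and 1.99 times (1.83 to 2.15) in the differentiating library.

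Set against all genes, the 7 genes divided as follows. For adherent over suspension, 3 of the 7 genes were higher (TRIM63, FBXO32 and FOXO3), where 20.0% of all genes were higher, and 2 were lower (TRIM55 and HECW2), where 21.6% were lower. For differentiated over suspension, none was higher and 4 were lower (TRIM63, TRIM55, FBXO32 and HECW2), where 9.16% of all genes were higher and 14.5% lower. For adherent over differentiated, 4 were higher (TRIM63, FBXO32, FOXO1 and FOXO3) and none was lower, where 22.7% and 18.3% of all genes were. The median log2 ratios of the 7 genes were 0.74, -1.54 and 1.55 in these comparisons, and those of all genes -0.15, -0.18 and 0.05. Each pair of comparisons shares a library, so these counts are not independent of each other. With the headings exchanged, TRIM55 and HECW2 were the genes called higher in adherent over suspension, TRIM63, FBXO32, FOXO1 and FOXO3 those lower in differentiated over suspension, and TRIM63, TRIM55, FBXO32 and HECW2 those higher in adherent over differentiated. TRIM63 and FBXO32 were lower in the differentiating library than in both other libraries, whichever heading holds.

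**Figure D2:**
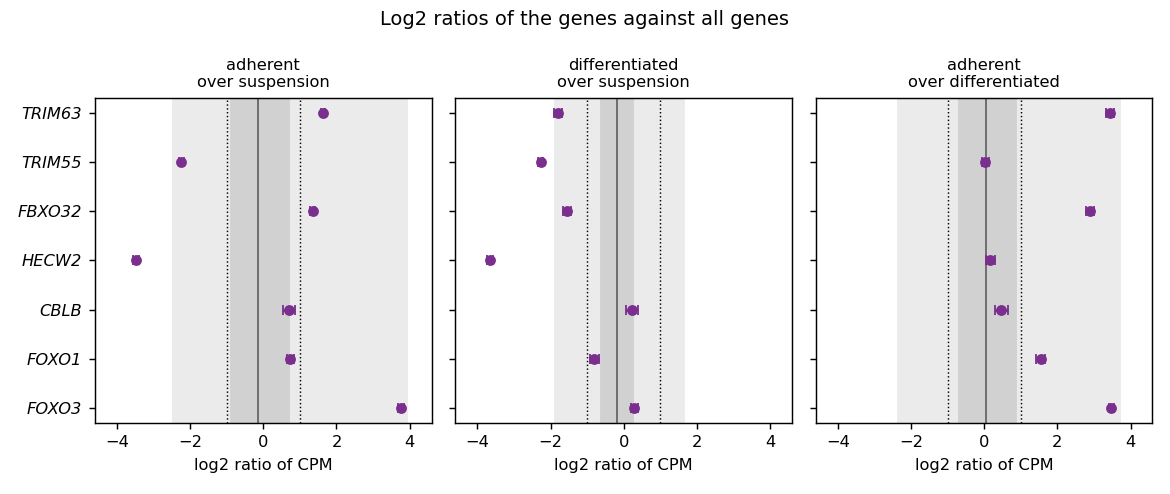
Log2 ratios of CPM of the 7 genes in the 3 comparisons, with exact 95% intervals for counting error; dark and light bands hold the middle 50% and 90% of all genes at or above 5 CPM, the solid line is their median and dotted lines mark 2-fold. HECW2 lay below the light band at -3.48 and -3.65 in both comparisons with the suspension library, and TRIM55 below it at -2.27 for differentiated over suspension.

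Summed markers of endothelial cells, Schwann cells and leukocytes were highest in the adherent library, where TRIM63, FBXO32, FOXO1, FOXO3 and CBLB were highest too. Of 10 endothelial markers, 6 were in the table and summed to 22.52, 410.7 and 51.15 CPM in the suspension, adherent and differentiating libraries. Of 8 Schwann cell markers, 4 were in the table and summed to 8.597, 266.0 and 11.75 CPM. Of 8 leukocyte markers, 5 were in the table and summed to 5.662, 87.82 and 8.985 CPM, with none at 0. Single markers went another way. The endothelial marker ERG was at 18.49, 17.37 and 45.23 CPM. S100B of Schwann cells had 6, 3 and 9 reads and CD79B of leukocytes 3, 1 and 2 reads. Pericyte or smooth muscle markers (5 of 8 in the table) summed to 533.2, 676.0 and 1282 CPM and adipocyte markers (4 of 5) to 269.4, 315.5 and 323.9 CPM. Within these sums MYH11 (1.007, 196.5 and 1.183 CPM), KCNJ8 (8.513, 61.68 and 18.50) and ADIPOQ (8.094, 210.0 and 29.41) were highest in the adherent library. The others found were highest in the differentiating library, except that LPL was level there and in the suspension library (247.0 and 246.0 CPM). The part of these cell types in the levels of the 7 genes was not tested, and a change in the share of cells of a type cannot be told apart from a change in RNA per cell.

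Intron reads can come from transcripts not yet spliced, but their source was not tested here. They were counted beside the exon reads. In TRIM63 they were 4.31% of gene reads (3.65 to 5.05) in the suspension library, 20.1% (19.3 to 20.9) in the adherent library and 6.0% (4.58 to 7.70) in the differentiating library. The median gene moved in the same direction, at 6.08%, 13.2% and 6.13%. The introns of FBXO32 took 1.70%, 7.70% and 3.32%, those of FOXO1 4.49%, 10.2% and 5.20%, and those of FOXO3 0.614%, 3.24% and 1.25% of their gene reads in the same order. The share was therefore highest in the adherent library for each of these 4 genes, as for the median gene.

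HECW2 and TRIM55 parted in this measure although their exon reads had the same order. The intron share of HECW2 was 6.04% (5.69 to 6.41) in the suspension library, 37.4% (35.1 to 39.8) in the adherent library and 8.66% (7.21 to 10.3) in the differentiating library. TRIM55 stood at 38.1%, 33.7% and 33.1%, and CBLB at 37.5%, 59.1% and 32.0%. Scaled by the library's exon reads, the introns of HECW2 held 1032 reads in the suspension library and 629 in the adherent library, a log2 ratio of -0.26 (-0.41 to -0.12), beside -3.48 for its exons. The introns of TRIM55 gave -2.51 (-2.62 to -2.41), beside -2.24 for its exons, while the median gene gave 1.26 for introns. Scaled by the library's intron reads instead, the introns of HECW2 gave -1.10, those of TRIM55 -3.35 and the median gene 0.42. Between the differentiating and suspension libraries the introns and exons of HECW2 were nearer, at -3.09 (-3.38 to -2.81) and -3.65.

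In FOXO3 the difference between the adherent and suspension libraries was larger in introns than in exons, with 540 and 10 intron reads and a log2 ratio of 6.21 (5.32 to 7.27) against 3.77 in exons. TRIM63 gave 4.12 (3.88 to 4.38) in introns and 1.64 in exons, and FBXO32 3.61 (3.16 to 4.10) and 1.35. Measured from the median gene of each kind of read, 1.26 for introns and -0.15 for exons, all 3 genes stood above it in both.

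Reads that cross from exon to exon come from spliced RNA alone. They gave the same side of 0 as all exon reads for each of the 7 genes in adherent over suspension. For FBXO32 they were few, 24 reads in the suspension library and 218 in the adherent library, 0.968% and 4.73% of its exon reads, and their log2 ratio was 3.78 (3.17 to 4.46) against 1.35 for all exon reads. In TRIM63, by contrast, 53.0% and 60.0% of exon reads crossed a junction, and the ratio was 1.97 (1.89 to 2.05). The median gene had 29.7% and 26.6% in the suspension and adherent libraries. FOXO1 passed the 2-fold limit in this measure, at 1.25 (0.56 to 1.96) for adherent over suspension and -1.30 (-2.36 to -0.31) for differentiated over suspension, on 13 to 47 reads per library.

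**Figure D3:**
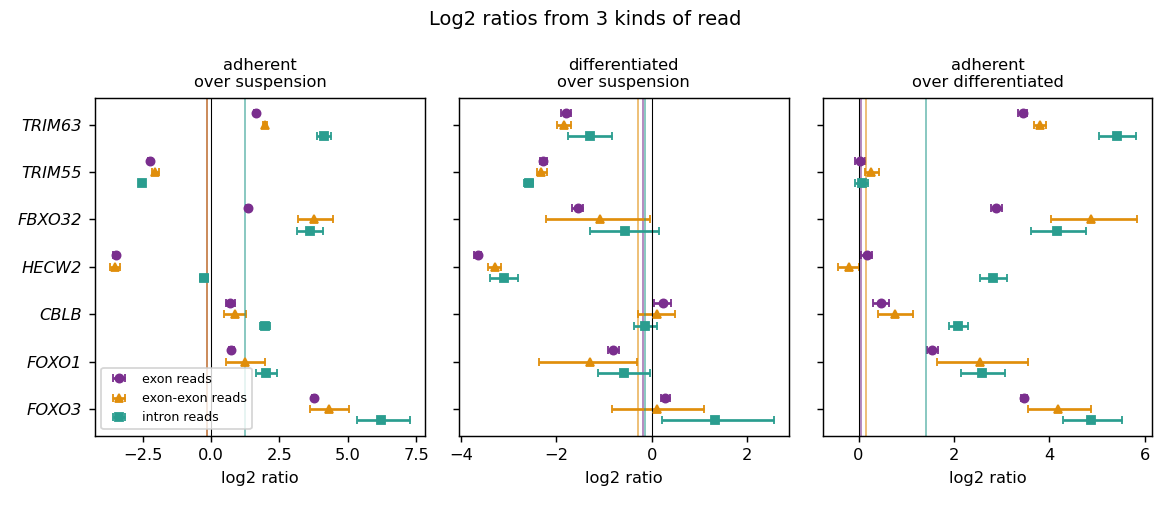
Log2 ratios of the 7 genes from exon reads, exon-exon reads and intron reads in the 3 comparisons, with exact 95% intervals; coloured vertical lines are the medians of all genes for each kind of read, and intron reads are scaled by exon totals. HECW2 stood at -3.48 in exons and -0.26 in introns for adherent over suspension.

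The genes nearest to each member were sought by the distance over both log2 ratios to the suspension library, among 8490 genes with a symbol and at least 10 reads in each library. This likeness rests on 3 libraries. Nearest to TRIM63 was USP2, which encodes a ubiquitin-specific protease, with 15.43, 48.15 and 4.427 CPM in the suspension, adherent and differentiating libraries and a distance of 0.00475. UPP2 and DEPDC1 followed at 0.137 and 0.157. Nearest to FBXO32 were ESR1, the estrogen receptor alpha gene (0.0413), DEPTOR, whose product binds and restrains mTOR (0.0630), and FAM72A (0.0897). DEPTOR stood at 65.30, 163.6 and 21.52 CPM. The distances leave out counting error, which is wide for genes as low as ESR1, at 0.7013 CPM in the differentiating library. The ranks of such low genes are therefore not firm.

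FOXO1 was nearest to CHD7, a chromatin remodeler gene (0.0522), HMBOX1 (0.0565) and NKIRAS2 (0.0660). FOXO3 was nearest to HERPUD1, a gene of the endoplasmic reticulum stress response (0.0582), at 44.92, 607.3 and 52.86 CPM, then to RASL11A (0.0611) and CREB5 (0.0928). TRIM55 was nearest to RASGRF1 (0.126), CENPK (0.147) and RUSC2 (0.200). CBLB, whose ratios were small, had 183 genes within 0.25 of it, led by CLNK (0.0180), CNOT6L (0.0395) and METTL25 (0.0460). HECW2 had no gene within 0.25, and its nearest were NEURL1, itself a ubiquitin ligase gene (0.502), SHROOM3 (0.630) and TMEM8C (0.684), an older symbol of the fusion gene myomaker, at 855.6, 98.83 and 101.7 CPM.

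**Figure D4:**
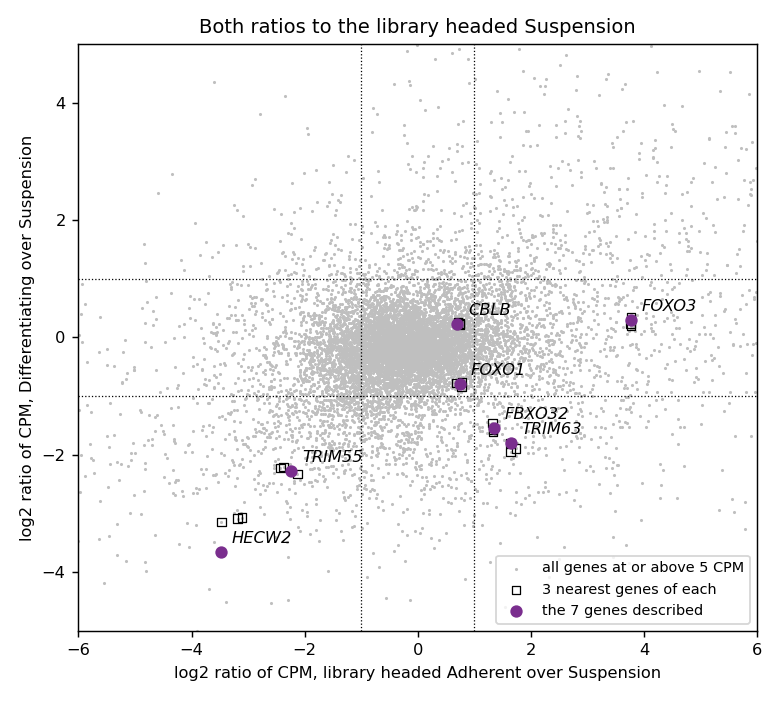
Log2 ratio of CPM of the adherent library over the suspension library (horizontal) against that of the differentiating library over the suspension library (vertical), for 10927 genes (grey, 258 of them beyond the axes), the 7 genes (filled) and the 3 nearest genes of each (squares). TRIM63 and FBXO32 lay to the lower right, FOXO3 to the far right, TRIM55 and HECW2 to the lower left, and HECW2 had no neighbour within 0.25.

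Of other ubiquitin ligase genes with a role in muscle, 18 reached the minimum. For adherent over suspension 2 were higher and 6 lower (median log2 ratio -0.32), for differentiated over suspension 0 of 17 were higher and 9 lower (-1.15), and for adherent over differentiated 7 were higher and 1 lower (0.43). Among all genes the shares higher and lower were 20.0% and 21.6%, 9.16% and 14.5%, and 22.7% and 18.3% in these comparisons. ASB5, which encodes a SOCS box subunit found in muscle, was at 409.5, 48.15 and 88.80 CPM in the suspension, adherent and differentiating libraries and was thus highest where TRIM55 and HECW2 were. FBXO40, a muscle F-box gene whose product targets IRS1 in mouse, was at 12.75, 5.962 and 3.550 CPM. KLHL41, whose product stabilises nebulin, was at 223.9, 328.0 and 96.82 CPM, the order of TRIM63. ASB2 was at 11.78, 10.60 and 2.937 CPM, and MDM2, the ligase gene for p53, at 477.9, 284.2 and 356.2 CPM and called in no comparison. ASB4 was seen almost only in the adherent library, with 173 reads there and 2 and 1 in the suspension and differentiating libraries.

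Of 8 relatives of HECW2 and CBLB and their regulators, none was higher and 2 were lower for adherent over suspension, none and 1 for differentiated over suspension, and 1 and 2 for adherent over differentiated, with median log2 ratios of -0.64, -0.33 and -0.17. In the same comparisons 20.0% and 21.6%, 9.16% and 14.5%, and 22.7% and 18.3% of all genes were higher and lower. HECW1, the closest relative of HECW2, was at 57.29, 8.140 and 49.18 CPM. Like HECW2 it was lower in the adherent library than in the suspension library (log2 ratio -2.82, -3.07 to -2.56), but for differentiated over suspension it stood at -0.22 (-0.34 to -0.11) where HECW2 stood at -3.65. UBASH3B, whose product binds CBL proteins, was at 33.93, 7.968 and 28.09 CPM. CBL, the relative of CBLB, was at 82.37, 44.60 and 38.22 CPM, and per kilobase was 2.55, 0.849 and 1.01 times CBLB. ITCH was at 37.16, 62.60 and 28.31 CPM, and NDFIP1 and NDFIP2, adaptors of NEDD4 ligases, were called in no comparison.

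These ligases work with the core of the SCF ligase and with ubiquitin-conjugating enzymes. Of 16 genes of these groups, none was higher and 2 were lower for adherent over suspension, none was called for differentiated over suspension, and 1 was higher and 1 lower for adherent over differentiated, with medians of -0.46, -0.15 and -0.28. Of all genes, 20.0% were higher and 21.6% lower in the first of these comparisons. The shares were 9.16% and 14.5% in the next and 22.7% and 18.3% in the last. The 2 lower in the first were UBE2L3, at 502.4, 81.46 and 279.1 CPM, and UBE2D1, at 139.9, 59.44 and 71.09 CPM. UBE2B, at 87.94, 127.8 and 50.14 CPM, was the 1 called higher in the last. UBE2D3 and UBE2V2 were called in none.

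FOXO4, the other forkhead O gene found, was at 154.9, 260.5 and 107.4 CPM and had the order of FOXO1. Its level per kilobase was 2.03, 2.04 and 2.46 times that of FOXO1. Of 12 genes of this family and its regulators, 1 was higher and 2 lower for adherent over suspension, none and 1 for differentiated over suspension, and 3 and 1 for adherent over differentiated, with medians of -0.04, -0.53 and 0.58. All genes were higher and lower in shares of 20.0% and 21.6%, 9.16% and 14.5%, and 22.7% and 18.3%. The 1 higher for adherent over suspension was SIRT1, whose product deacetylates FOXO proteins, at 77.71, 165.0 and 55.71 CPM. The 2 lower were YWHAZ and YWHAG, which encode 14-3-3 proteins that hold phosphorylated FOXO in the cytoplasm, at 904.6, 386.9 and 641.0 CPM and at 297.9, 74.64 and 152.4 CPM. CREBBP, an acetyltransferase gene, was at 250.1, 324.4 and 138.3 CPM. PRKAA1, which encodes a catalytic subunit of AMPK, was at 41.85, 27.06 and 17.27 CPM.

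Of 23 genes of the insulin and AKT pathway, which acts upstream of FOXO proteins, 5 were higher and 1 lower for adherent over suspension (median 0.34), none and 5 for differentiated over suspension (-0.44), and 8 and 2 for adherent over differentiated (0.75). Beside these counts, shares of all genes higher and lower were 20.0% and 21.6%, 9.16% and 14.5%, and 22.7% and 18.3%. INSR, the insulin receptor gene, was at 29.23, 82.26 and 12.97 CPM, IGF1R at 324.6, 520.9 and 192.5 CPM, and IRS2 at 10.02, 100.7 and 2.893 CPM. IRS4 was at 73.98, 378.8 and 62.06 CPM, and PIK3R1 at 0.8388, 6.535 and 0.7889 CPM.

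Of 26 genes known in mammals as targets of FOXO factors, 11 were higher and 4 lower for adherent over suspension (median 0.59), 4 and 6 for differentiated over suspension (-0.17), and 13 and 3 for adherent over differentiated (1.03). For all genes the shares higher and lower were 20.0% and 21.6%, 9.16% and 14.5%, and 22.7% and 18.3%. PDK4, a kinase gene that restrains glucose oxidation, was at 9.730, 901.8 and 78.63 CPM. KLF2 was at 44.66, 2682 and 36.29 CPM and SESN1, a stress-response gene, at 128.6, 1255 and 111.9 CPM. KLF15, whose product works with FOXO factors and the glucocorticoid receptor on TRIM63 in mammals, was at 13.34, 125.3 and 4.602 CPM, the order of TRIM63. The 4 lower for adherent over suspension were CDKN1A, SESN3, BCL6 and ATG4B. CDKN1A was at 228.4, 27.17 and 267.7 CPM and SESN3 at 17.40, 5.847 and 108.9 CPM.

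Of 16 genes tied to denervation or glucocorticoids, 8 were higher and 2 lower for adherent over suspension (median 1.00), 1 and 3 for differentiated over suspension (-0.11), and 7 and 2 for adherent over differentiated (0.68). Here too the shares of all genes higher and lower were 20.0% and 21.6%, 9.16% and 14.5%, and 22.7% and 18.3%. FKBP5, a gene that glucocorticoids induce, was at 130.6, 1888 and 121.0 CPM. NFKBIA, the inhibitor of NF-kB, was at 23.95, 468.4 and 22.18 CPM. DACH2, which responds to denervation, had 6, 132 and 4 reads, while RUNX1, another gene of denervation, had 153, 4 and 286 reads and so the opposite order. GADD45A was at 327.9, 322.5 and 205.0 CPM and was called in no comparison.

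A list of genes of the sarcomere and of other partners and substrates of the MuRF proteins held 23 genes. For adherent over suspension 5 were higher and 11 lower (median -0.95), and for differentiated over suspension 1 was higher and 16 lower (-1.80). For adherent over differentiated 11 were higher and 5 lower (0.59). Shares of all genes higher and lower were 20.0% and 21.6%, 9.16% and 14.5%, and 22.7% and 18.3%. SQSTM1 and PPARA, which are not sarcomere genes, were among the 5 higher for adherent over suspension (1.58 and 1.52). MYL3, a myosin light chain gene, was at 975.3, 3.726 and 272.0 CPM, TNNT2 of troponin at 4225, 97.11 and 942.9 CPM, and OBSL1 at 273.3, 1.892 and 48.47 CPM. By the headings of the counts, these genes were highest in the suspension library, as TRIM55 was, but unlike TRIM55 were lowest in the adherent library. The paper reports MYL3, TNNT2 and OBSL1 the other way, higher in adherent than in suspension cells, which is the direction that exchanged headings would give. TNNT3 was at 2325, 1434 and 594.5 CPM. TCAP, which encodes the titin cap, had 0 reads in the suspension library, against 678 in the adherent library and 8 in the differentiating library. With a floor of 3 reads in place of 0, its log2 ratio of adherent over suspension was 8.27. The counting interval had a lower limit of 7.97 and no upper limit.

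Of 11 genes whose proteins are reported substrates of atrogin-1 in mammals, 3 were higher and 2 lower for adherent over suspension (median 0.44), none and 3 for differentiated over suspension (-0.13), and 5 and 1 for adherent over differentiated (0.41). As given above, 20.0% and 21.6%, 9.16% and 14.5%, and 22.7% and 18.3% of all genes were higher and lower. MYOD1, a transcription factor gene that commits cells to muscle, was at 767.9, 1522 and 93.79 CPM and had the order of FBXO32. DES, the desmin gene, was at 2781, 1064 and 940.3 CPM and VIM, the vimentin gene, at 5438, 2340 and 7887 CPM. DUSP1 was at 89.08, 2171 and 33.79 CPM.

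**Figure D5:**
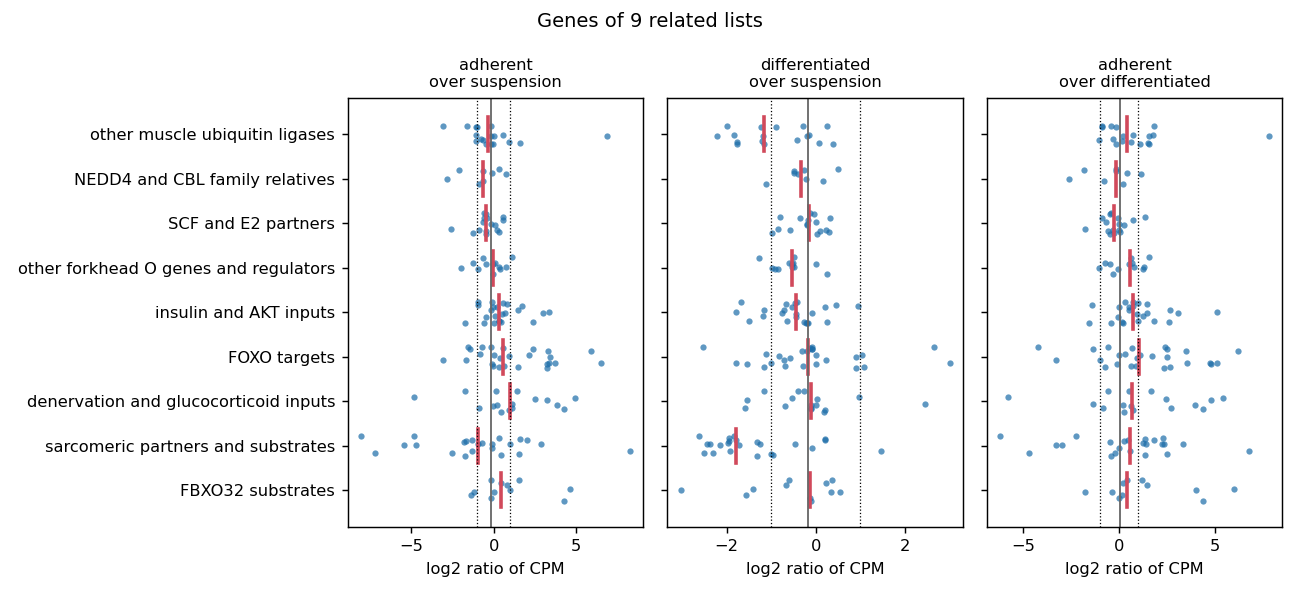
Log2 ratios of CPM in the 3 comparisons for the genes of 9 related lists at or above 5 CPM in at least 1 library; each point is a gene, red bars are list medians, the grey line is the median of all genes and dotted lines mark 2-fold. Medians ran from -0.95 (sarcomeric partners and substrates) to 1.00 (denervation and glucocorticoid inputs) for adherent over suspension.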

How the data were processed

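RNA of 3 cultures of turkey satellite cells was measured as 1 library each. The submitters' processing notes name bcl2fastq 2.20 and STAR 2.5.2b; the paper adds Skewer and featureCounts. The paper also names a turkey genome for its alignment. Whether the deposited table came from that route and uses that build, and whether strand was used in counting, are not given in the sources used here, so reads of overlapping genes on opposite strands may not be told apart. The deposited counts, which the authors did not scale, are reads on exons, introns and exon junctions of each gene, with exon lengths. The deposited fold-change scores, signed ratios of unscaled counts by the authors, served only to check the column headings, and the RPKM columns were not used.

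Levels are exon counts over the sum of exon reads in that library (CPM), and log2 ratios had no pseudocount. A gene with 0 reads was set to a floor of 3 reads, and pairs with both counts at or below 3 were given no ratio. Intervals are exact 95% Poisson (levels) and Clopper-Pearson (shares and ratios) intervals for counting error only. Of the exon reads of the 7 genes, 99.96% to 100% were unique to the gene. The members and gene lists were chosen with earlier results of these data known, and lists are given by counts and medians only. Named genes were the members, per list up to 4 genes with the largest log2 ratio and 2 with the highest mean CPM, and the 3 nearest genes of each member. Some further listed genes were named to show the spread within a list. Alternatives were TMM (edgeR 4.0.16, R 4.3.3), median-of-ratios and upper quartile scaling, pseudocounts of 1 and 10 CPM, a limit of 1.5-fold or of 4-fold, calls by intervals beyond 2-fold, unique reads, exon and intron reads, no minimum or a minimum of 50 CPM for the background, and exchanged headings. Exon-exon reads were added after seeing the data. Python 3.11.15, numpy 2.4.6, pandas 2.3.3, scipy 1.17.1 and matplotlib 3.10.9 were used. A few listed genes are left unnamed and enter the counts and sums alone.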

Additional observations from a re-analysis of the deposited data

How the results depend on the processing

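The genes called among the 7 were the same in every comparison under TMM, median-of-ratios and upper quartile scaling, pseudocounts of 1 and 10 CPM, intervals wholly beyond 2-fold and unique exon reads. With a limit of 1.5-fold, 5 genes were higher for adherent over suspension, FOXO1 and CBLB being added, and 5 were lower for differentiated over suspension, FOXO1 being added. With a limit of 4-fold, 3 were called for adherent over suspension, of which 1 was higher (FOXO3), and for differentiated over suspension 2 were called, both lower (TRIM55 and HECW2), and FOXO1 was no longer called for adherent over differentiated, leaving 3. Exon and intron reads together added CBLB for adherent over suspension, at a log2 ratio of 1.15 (1.03 to 1.27). Of 168 log2 ratios under 8 settings, 85 stayed within the counting interval and 83 moved, and no called ratio changed sign, the exchange of headings aside. Uncalled ratios near 0 did: TRIM55 for adherent over differentiated went from 0.03 to -0.15 with TMM, and HECW2 from 0.17 to -0.01 with TMM and -0.20 with exon-exon reads.

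For differentiated over suspension, 38.8% of all calls were higher, against 48.8% with TMM, which moved the median of all genes from -0.18 to -0.01, and median-of-ratios scaling gave 1247 higher and 1248 lower. With a pseudocount of 10 CPM the genes called higher and lower for adherent over suspension went from 2203 and 2385 to 1311 and 1291, and with no minimum 4148 were higher. No paired analysis was possible because each culture has 1 library. Depth did not limit the members, which had at least 516 exon reads, but the exon-exon reads of FBXO32, FOXO1 and FOXO3 and the intron reads of FOXO3 were few.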
